A study of Mus musculus with 24 samples.

Results

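The 10 genes described here encode granule proteins of neutrophils, both subunits of calprotectin and the receptor that drives neutrophil production. They are S100a8, S100a9, Lcn2, Camp, Ngp, Ltf, Mmp8, Elane, Mpo and Csf3r, and they were found by symbol in the platform annotation. All 10 had a probe set, 1 for each gene, among 18193 genes with a value. The genes were chosen by their measured values in these same arrays: a neutrophil marker list, led by Lcn2, S100a8, S100a9 and Camp, had stood higher at 0.5% and 1.0% quercetin and along the dose. Their values in the diet comparisons are therefore a description and support nothing by themselves.

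The samples are livers of 24 male BALB/c mice, 1 Affymetrix array per mouse, in 4 diet groups of 6. The animals were obtained at 6 weeks of age, held on an unpurified chow, and then given the purified diet AIN93G for 14 days. The control group ate AIN93G alone, and the others ate it with 0.1%, 0.5% or 1.0% quercetin, a plant flavonol, so that all 4 groups share the purified base diet. Mice were kept 3 to a cage, and the cage of each animal was not used here, so cage and diet cannot be told apart. Levels below are log2(intensity + 1) after quantile normalization between arrays, and each difference is on that scale, which understates differences of dim genes.

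Neutrophils are short-lived white cells that are made in the bone marrow and reach the liver with the blood. Their primary granules, filled early in maturation, carry myeloperoxidase and serine proteases, and their secondary granules, filled later, carry lactoferrin, lipocalin 2, cathelicidin and a collagenase. Calprotectin, the S100A8 and S100A9 complex, is the main calcium-binding protein of their cytosol and binds zinc and manganese. Some of these products are not limited to neutrophils: monocytes also make calprotectin, and hepatocytes make lipocalin 2 in inflammation. In a whole-liver sample, fewer cells of a type and less RNA per cell cannot be told apart.

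Upstream sequences are shown for S100a8, S100a9 and Lcn2, which were highest in the same livers at 0.5% and 1.0%, and for Ngp, which was above the floor and had correlations with them near 0. All 10 genes matched an entry of the RefSeq promoter table, build GRCm38.p6. Each run below is the 250 bases before the annotated gene start, 5′ to 3′ on the gene's strand. Capitals mark matches on either strand to C/EBP (TTNCNNAA), NF-kB (GGG and CC with any 5 bases between), STAT (TTCNNNGAA), PU.1 (GAGGAA) or TATA box (TATAAA) letters.
S100a8, chr3:90668821-90669070, plus strand: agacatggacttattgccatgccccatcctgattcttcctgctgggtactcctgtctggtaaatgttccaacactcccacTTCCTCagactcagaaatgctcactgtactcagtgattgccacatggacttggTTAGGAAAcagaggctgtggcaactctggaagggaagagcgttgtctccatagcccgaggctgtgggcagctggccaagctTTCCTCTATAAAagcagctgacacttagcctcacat
S100a9, chr3:90695722-90695971, minus strand: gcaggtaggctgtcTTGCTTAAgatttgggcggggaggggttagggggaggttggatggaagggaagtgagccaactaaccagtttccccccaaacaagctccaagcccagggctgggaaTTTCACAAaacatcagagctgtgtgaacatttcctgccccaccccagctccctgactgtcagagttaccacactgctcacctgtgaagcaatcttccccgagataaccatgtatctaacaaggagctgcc
Lcn2, chr2:32387740-32387989, minus strand: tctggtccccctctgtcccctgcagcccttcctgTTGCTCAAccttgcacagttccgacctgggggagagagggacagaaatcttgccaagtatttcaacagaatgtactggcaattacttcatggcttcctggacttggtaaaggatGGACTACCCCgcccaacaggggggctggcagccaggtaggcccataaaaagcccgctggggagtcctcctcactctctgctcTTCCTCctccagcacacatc
Ngp, chr9:110419558-110419807, plus strand: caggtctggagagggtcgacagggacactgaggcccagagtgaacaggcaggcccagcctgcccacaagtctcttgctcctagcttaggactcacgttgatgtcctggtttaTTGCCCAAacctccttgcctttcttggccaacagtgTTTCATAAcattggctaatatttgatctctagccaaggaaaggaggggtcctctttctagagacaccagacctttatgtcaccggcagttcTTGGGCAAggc

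S100a8 had a TATA box match at bases -30 to -25, directly after a PU.1 match at -36 to -31, and a C/EBP match at -117 to -110. S100a9 had C/EBP matches at -236 to -229 and -130 to -123. Lcn2 had a C/EBP match at -216 to -209, an NF-kB match at -102 to -93 and a PU.1 match at -20 to -15. Ngp had 3 C/EBP matches. Over the 10 genes, C/EBP letters were present in 6 windows, against 36.8% of all 32851 promoters of the same length. PU.1 letters were present in 7, against 23.3%. NF-kB letters were present in 4, against 45.8%, and a TATA box in 1, against 12.4%. STAT letters were in 0, against 7.02%, and the Camp window held none of the 5 motifs. In Ltf, 4 NF-kB matches overlapped one another, counting both strands. A match says only that these letters occur. S100a8 and S100a9 lie next to each other on chromosome 3, Elane lies next to Prtn3, the proteinase 3 gene, on chromosome 10, and Camp, Ngp, Ltf and Mmp8 are all on chromosome 9 without being direct neighbours.

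**Figure D1:**
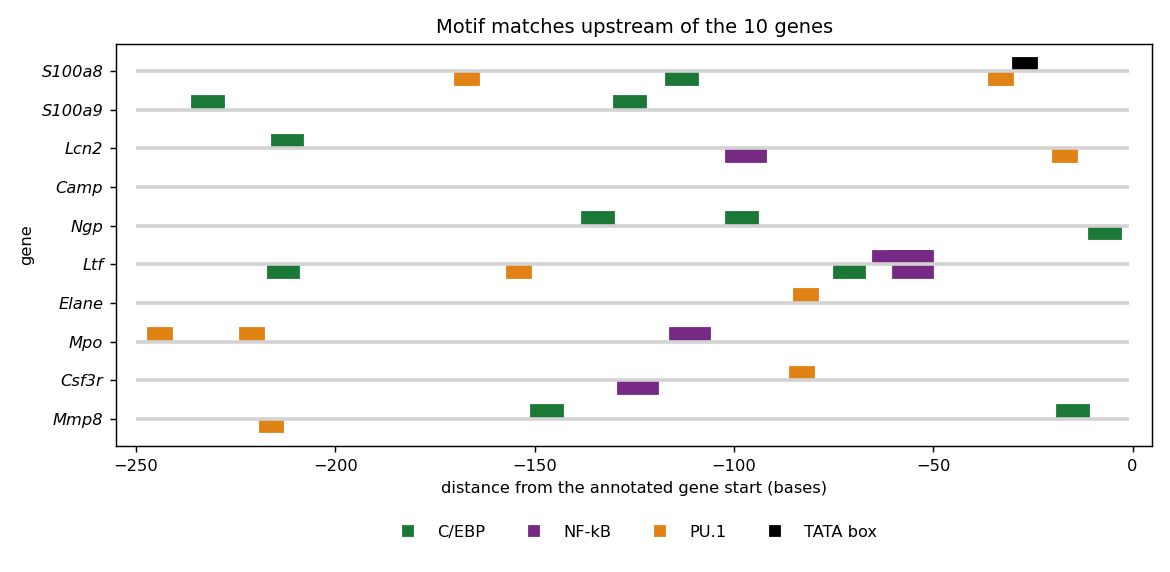
Matches to 4 of the 5 motifs in the 250 bases before the start of each of the 10 genes, with the gene on the vertical axis and the distance from the annotated start in bases on the horizontal axis. Boxes above a line are matches on the gene's strand and boxes below it on the other strand; the Camp line is empty, and S100a8 holds the TATA box match.

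Only 4 of the 10 genes were measured above the floor. The floor was set at the median of all named probe sets, 3.21 on the log2 scale, an intensity of 8.26, and a gene counted as above it when at least 12 of the 24 arrays were. The 95th percentile of 44 probe sets of olfactory receptor genes, 3.28, gave the same 4 genes. S100a9 and Lcn2 were above the floor in 24 arrays, S100a8 in 23 and Ngp in 22. Elane was above it in 10 arrays, Csf3r in 8, Ltf in 6, Mpo in 4, Mmp8 in 3 and Camp in 0. For these 6 genes the size of any difference is uncertain. S100a8 and Ngp were not far above the floor either, with control medians of 3.42 and 3.81.

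Some arrays stood apart over all genes. The first principal component over all genes held 9.15% of the variance, and on it 4 arrays lay at least 55.4 from the median against at most 16 for the other 20. They were replicates 4 and 6 of the 0.5% group and replicates 4 and 5 of the 1.0% group. Array medians of the deposited intensity ran from 4.78 to 7.58. The differences of the 10 genes, and of some of the other genes and gene lists, are therefore also given without those 4 arrays. The hepatocyte markers were as the label liver implies, with 8 of 8 measured genes above the floor and Apoa1, an apolipoprotein gene, at a mean of 13.28.

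Both calprotectin genes were higher on average at 0.5% and 1.0% quercetin, with wide spread between mice. S100a8 ranged from 3.15 to 4.72 in control livers with a median of 3.42, and from 3.29 to 4.31 at 0.1% with a median of 3.69. At 0.5% it ranged from 4.01 to 7.20 with a median of 4.62, and at 1.0% from 3.56 to 5.89 with a median of 4.58. The highest 0.5% values were 7.20 in replicate 6 and 6.36 in replicate 4, and the highest 1.0% values were 5.89 in replicate 4 and 5.48 in replicate 5. These are the arrays that stood apart, and all other quercetin-fed mice overlapped the control range. In deposited intensity, S100a8 ran from 5.92 to 24.3 in control and from 16.5 to 147 at 0.5%.

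The S100a8 mean was 3.67 ± 0.61 in control, 3.73 ± 0.36 at 0.1%, 5.19 ± 1.28 at 0.5% and 4.62 ± 0.95 at 1.0% (SD, n = 6). It differed from control by 1.52 (SE 0.48) at 0.5%, a 2.87-fold level, and by 0.95 (SE 0.48) at 1.0%, a 1.93-fold level. At 0.1% the difference was 0.0558 (SE 0.48). Of the 6 arrays, 6 lay above the control mean at 0.5%, 4 at 1.0% and 3 at 0.1%. Without the 4 arrays the differences were 0.73 (SE 0.30) at 0.5% and 0.41 (SE 0.30) at 1.0%.

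S100a9 showed a similar order of arrays with a flatter profile over the diets. It ranged from 3.39 to 5.07 in control, median 3.93, and from 4.19 to 5.02 at 0.1%, median 4.60. At 0.5% it ranged from 3.98 to 7.25, median 4.69, and at 1.0% from 3.51 to 5.49, median 4.92. Replicates 6 and 4 were again the highest at 0.5%, at 7.25 and 6.27, and the groups overlapped at every dose. The means were 4.03 ± 0.63, 4.61 ± 0.31, 5.19 ± 1.30 and 4.81 ± 0.73 in control, 0.1%, 0.5% and 1.0% (SD, n = 6).

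S100a9 differed from control by 0.58 (SE 0.46) at 0.1%, where 6 of 6 arrays lay above the control mean and 0 above the highest control array. The difference was 1.16 (SE 0.46) at 0.5% and 0.78 (SE 0.46) at 1.0%, 2.23-fold and 1.71-fold. Replicate 6 of the 0.5% group carried much of the value at that dose, which was 0.75 without it. Without the 4 arrays the differences were 0.37 (SE 0.33) at 0.5% and 0.45 (SE 0.33) at 1.0%, below the 0.58 at 0.1%, where no array was removed.

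Lcn2, the gene of the iron-siderophore-binding lipocalin 2, had the widest range of the 10, from 4.13 to 10.17 over the 24 livers. It ranged from 4.13 to 5.41 in control, median 4.55, and from 4.13 to 5.58 at 0.1%, median 4.52. At 0.5% it ranged from 4.49 to 10.17, median 6.03, and at 1.0% from 5.53 to 7.94, median 6.41. Every 1.0% liver lay above every control liver, which held for 1 of the 10 genes and for 0.401% of the 18193. At 0.5% and 0.1% it held for 0 of the 10, beside 0.192% and 0.187% of all genes. At 0.5% the groups overlapped, with 4 of 6 arrays above the highest control. In deposited intensity, Lcn2 ran from 12.1 to 32.5 in control, from 39.8 to 228 at 1.0% and up to 1140 in replicate 6 of the 0.5% group.

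The Lcn2 means were 4.65 ± 0.52 in control, 4.72 ± 0.60 at 0.1%, 6.67 ± 2.17 at 0.5% and 6.63 ± 0.93 at 1.0% (SD, n = 6). The difference from control was 0.063 (SE 0.69) at 0.1%, 2.02 (SE 0.69) at 0.5% and 1.97 (SE 0.69) at 1.0%, 4.05-fold and 3.93-fold at the higher doses. The mean thus stood at nearly the same level at 0.5% and 1.0%, while the spread at 0.5% was more than that at 1.0%. Without replicate 6 of the 0.5% group the difference at that dose was 1.32. Without the 4 arrays it was 0.73 (SE 0.37) at 0.5% and 1.42 (SE 0.37) at 1.0%, with 4 mice left in each of these groups. Over those 20 arrays S100a8 and S100a9 had smaller differences at 1.0%, 0.41 and 0.45, than Lcn2, a contrast that was not tested.

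The other secondary granule genes were dimmer than the floor in most arrays, except Ngp. Ngp, which encodes a cathelicidin-related granule protein, had a median of 3.81 in control, 4.01 at 0.1%, 3.84 at 0.5% and 4.01 at 1.0%. Its range was 3.06 to 4.39 in control and 3.68 to 4.43 at 1.0%, so the groups overlapped. It differed from control by 0.18 (SE 0.22) at 0.1%, -0.13 (SE 0.22) at 0.5% and 0.18 (SE 0.22) at 1.0%. The 95% interval at 1.0% ran from -0.29 to 0.65. At 0.5% the sign turned without replicate 5, to 0.066. In the 20 other arrays Ngp differed by -0.22 (SE 0.26) at 0.5% and 0.12 (SE 0.26) at 1.0%. In replicates 4 and 6 of the 0.5% group, where S100a8, S100a9 and Lcn2 were highest, Ngp stood at 4.06 and 3.71.

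Camp, the cathelicidin gene, was the dimmest, with a mean brighter than 6.73% of the named probe sets and no array above 2.49. It differed from control by 0.49 (SE 0.29) at 1.0%, and by 0.59 (SE 0.32) without the 4 arrays. Ltf, the lactoferrin gene, had medians of 2.60, 3.32, 2.64 and 3.14 in control, 0.1%, 0.5% and 1.0%, and its lowest arrays were control replicates 1 and 5 at 0.38 and 0.74. Its difference at 1.0% was 0.86 (SE 0.54), and 0.87 (SE 0.66) without the 4 arrays. Mmp8, the neutrophil collagenase gene, had medians of 1.82, 1.37, 2.68 and 2.79 in the same order. It was above the floor only in replicates 4 and 6 of the 0.5% group, at 3.40 and 3.87, and in replicate 2 of the 1.0% group, at 3.59. Without the 4 arrays Mmp8 differed from control by -0.0703 (SE 0.52) at 0.5%, against 0.55 (SE 0.50) with them, and by 0.74 (SE 0.52) at 1.0%, against 0.81 (SE 0.50). In the 20 arrays 7 of the genes described, Mmp8 and Lcn2 among them, had a larger difference at 1.0% than at 0.5%. Mmp8 stood 0.82 higher at 1.0% than at 0.5% and Lcn2 0.70, beside 1.10 for Csf3r, 1.04 for Elane and 0.94 for Ltf. S100a8, Camp and Mpo were lower at 1.0% than at 0.5%. Mmp8, Csf3r, Elane and Ltf were below the floor in most of these arrays.

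The primary granule genes lay around the floor in all groups. Elane, which encodes neutrophil elastase, had medians of 3.01 in control, 3.23 at 0.1%, 2.57 at 0.5% and 3.53 at 1.0%. In replicate 6 of the 0.5% group, the liver with the highest S100a8, Elane was at 1.49. Its difference at 1.0% was 0.62 (SE 0.41), and 0.76 (SE 0.44) without the 4 arrays. Mpo, the myeloperoxidase gene, had medians of 2.67, 2.91, 3.04 and 2.90, and its 4 arrays above the floor were in the 0.5% and 1.0% groups. Its difference of 0.82 (SE 0.34) at 0.5% was not carried by the arrays that stood apart, since it was 1.02 (SE 0.39) without them, but control replicate 1, at 0.71, was the lowest of all arrays, and without it the difference was 0.50. With a pseudocount of 16 in place of 1 it was 0.23.

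Csf3r encodes the receptor for granulocyte colony-stimulating factor, the cytokine that drives neutrophil formation. Its median was 2.26 in control, 3.45 at 0.1%, 1.87 at 0.5% and 2.70 at 1.0%. More arrays were above the floor at 0.1% (4) than in control (2), at 0.5% (1) or at 1.0% (1). The ranges overlapped in all comparisons, and the difference at 1.0% was 0.19 (SE 0.58), and 0.56 (SE 0.61) without the 4 arrays.

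**Figure D2:**
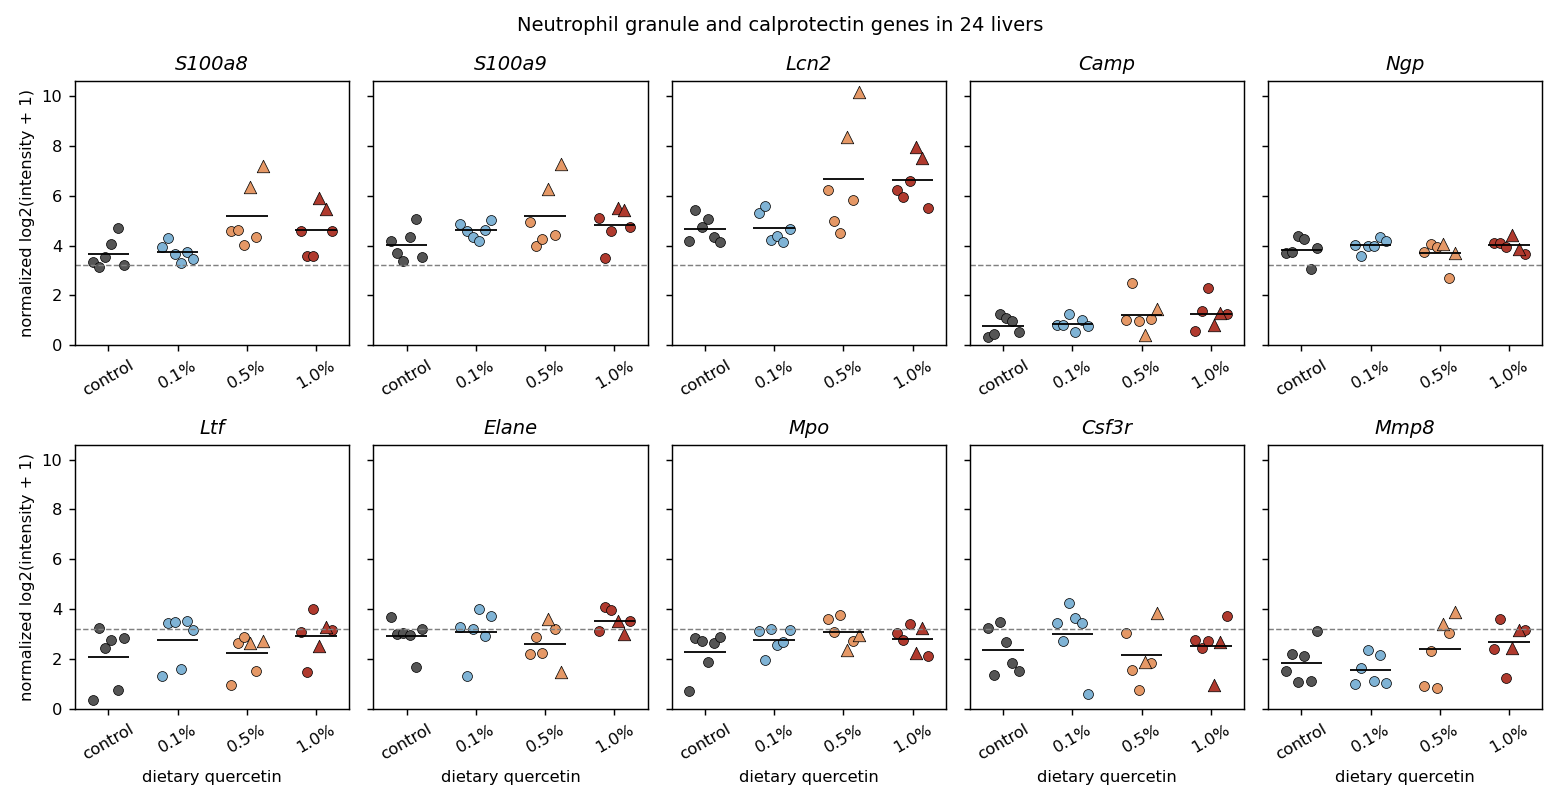
Normalized log2(intensity + 1) of each of the 10 genes (vertical axis) in each mouse by dietary quercetin (horizontal axis); circles and triangles are single livers, triangles mark the 4 arrays apart on the first principal component, short lines are group means and the dashed line is the floor at 3.21. S100a8, S100a9 and Lcn2 reach their highest values in the triangles, while Camp, Ltf, Elane, Mpo, Csf3r and Mmp8 lie mostly below the floor.

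Against control, 10 of the 10 group means were higher at 1.0%, 7 at 0.5% and 9 at 0.1%, while 48.4%, 46.6% and 52.3% of all 18193 genes were higher in the same comparisons. The median difference of the 10 genes was 0.70 at 1.0%, 0.50 at 0.5% and 0.16 at 0.1%, beside -0.00991, -0.0211 and 0.0121 for all genes. These comparisons were known when the list was made, and 6 of the genes lie near the floor. None of the 10 passed limma at a Benjamini-Hochberg adjusted p of 0.05 over all genes, at 0.1%, 0.5% or 1.0% against control, where 0%, 0.0165% and 0.022% of genes passed. The smallest adjusted p was 0.997 at 0.1%, 0.507 at 0.5% and 0.415 at 1.0%. At an unadjusted p under 0.05 the counts were 0, 4 and 1 of 10, beside 5.11%, 7.65% and 8.92% of all genes. All of them were higher than control, as were 2.76%, 3.74% and 4.45% of all genes at that level. The 4 at 0.5% were S100a8, S100a9, Lcn2 and Mpo, and the 1 at 1.0% was Lcn2.

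Between doses, 0 of the 10 genes passed in limma. Means were higher for 6 of 10 at 0.5% than at 0.1%, for 9 at 1.0% than at 0.1% and for 6 at 1.0% than at 0.5%, beside 45.3%, 47.1% and 51.4% of all genes. At 0.5% against 0.1% the unadjusted count was 2, S100a8 (1.47, SE 0.48) and Lcn2 (1.96, SE 0.69), beside 10.1% of genes in either direction and 4.36% upward, and 0.214% of genes passed after adjustment. At 1.0% against 0.1% it was 2, Lcn2 (1.91, SE 0.69) and Mmp8 (1.12, SE 0.50), beside 9.42% and 4.21%, and 0.253% passed. At 1.0% against 0.5% it was 1, Elane (0.93, SE 0.41), beside 6.19% and 3.25%, and 0.022% passed. S100a8 stood 0.57 lower at 1.0% than at 0.5% on the fitted scale (difference -0.57, SE 0.48), S100a9 differed by -0.38 (SE 0.46) and Lcn2 by -0.046 (SE 0.69). The 95% interval for Lcn2 ran from -1.48 to 1.39, too wide to show that the 2 doses are alike. With the 4 arrays left out, Lcn2 stood 0.70 (SE 0.40) higher at 1.0% than at 0.5%, S100a9 differed by 0.0824 (SE 0.36) and S100a8 by -0.31 (SE 0.33). In the same 20 arrays S100a8 and Lcn2 differed by 0.67 (SE 0.30) and 0.66 (SE 0.37) at 0.5% against 0.1%, and Lcn2 and Mmp8 by 1.36 (SE 0.37) and 1.05 (SE 0.52) at 1.0% against 0.1%. Elane differed by 1.04 (SE 0.48) at 1.0% against 0.5%. In these 3 comparisons 0 of the 10 passed, beside 0.055%, 0.17% and 0% of all genes.

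Along the dose, 9 of 10 slopes were positive, beside 47.6% of all genes, and 0 passed, beside 0.0989%. The slope of Lcn2 was 2.20 per 1% quercetin (SE 0.64, adjusted p = 0.163) and that of S100a8 1.13 (SE 0.48, adjusted p = 0.382). S100a9 sloped by 0.66 (SE 0.43) and Mmp8 by 1.02 (SE 0.44), the latter below the floor in most arrays. At an unadjusted p under 0.05 the count was 3, S100a8, Lcn2 and Mmp8, beside 10.9% of genes, 4.86% with a positive slope. Without replicate 6 of the 0.5% group Lcn2 passed (slope 2.08, SE 0.45, adjusted p = 0.0495), 1 of 24 fits with an array left out, whose adjusted p ran up to 0.354; in that fit 0.236% of genes passed. Without the 4 arrays the slope was 1.47 (SE 0.32, adjusted p = 0.091) for Lcn2, 0.53 (SE 0.29) for S100a8, 0.23 (SE 0.31) for S100a9 and 0.82 (SE 0.47) for Mmp8, and 0 of the 10 passed, beside 0.0934% of genes.

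**Figure D3:**
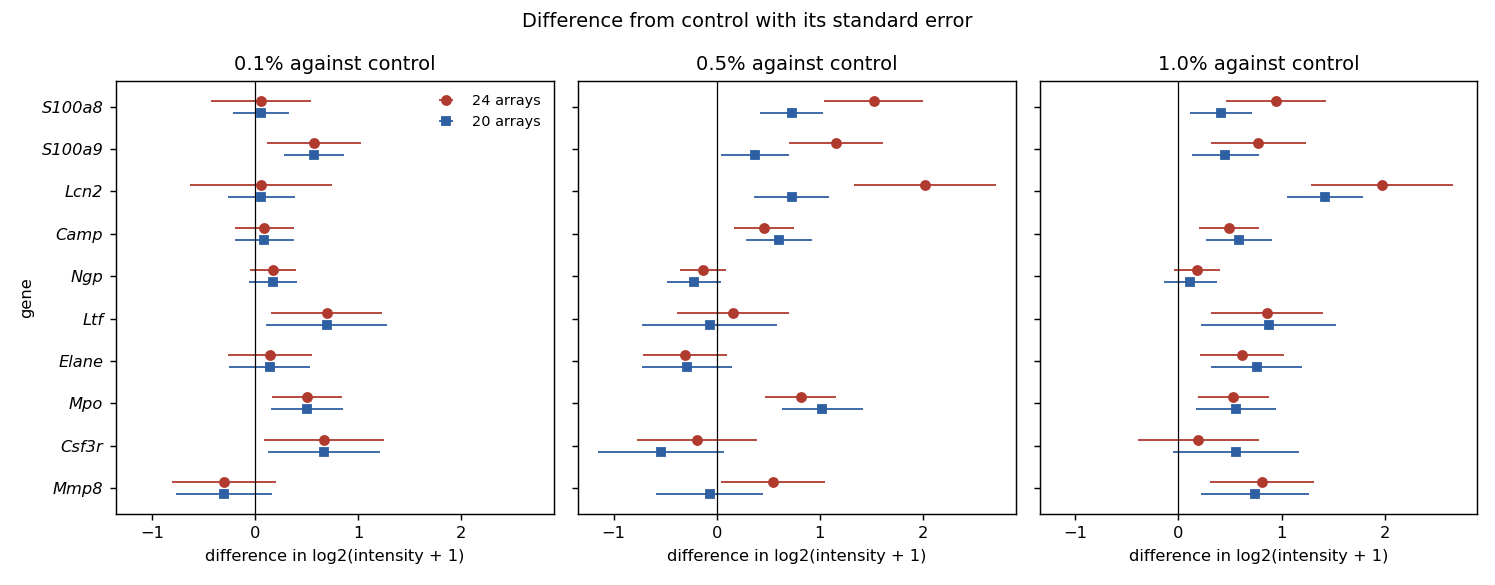
Difference from control in log2(intensity + 1) (horizontal axis) for the 10 genes (vertical axis) at 0.1%, 0.5% and 1.0% quercetin; circles are all 24 arrays, squares the 20 arrays without those apart on the first principal component, and bars are 1 SE from limma. At 0.5% Lcn2 stands at 2.02 with all arrays and at 0.73 with 20, and at 1.0% at 1.97 and 1.42.

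Replicates 1 to 3 and 4 to 6 of the groups gave different sizes. At 0.5% Lcn2 differed from control by 0.44 over replicates 1 to 3 and by 3.59 over replicates 4 to 6, S100a8 by 1.08 and 1.96, and S100a9 by 0.64 and 1.67. At 1.0% Lcn2 differed by 1.47 and 2.47, S100a8 by 0.58 and 1.32, and S100a9 by 0.65 and 0.90. All of these were above 0, in genes chosen for standing higher at these doses in the same arrays. At 0.5% Csf3r differed by -0.90 and 0.52, Elane by -0.79 and 0.16 and Mmp8 by -0.23 and 1.32, each below the floor in most arrays. At 0.1% S100a8 differed by 0.63 and -0.52 and Lcn2 by 0.25 and -0.13, in opposite directions. The labels do not say whether the replicate numbers follow cages or days, and a part of either in these values was not tested.

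S100a8, S100a9 and Lcn2 were highest in the same livers at 0.5%, replicates 6 and 4, and at 1.0%, replicates 4 and 5. Each value was taken as its deviation from its own diet mean. The livers that gave the largest deviations also raised the diet means by which the genes were chosen, so these correlations are not independent of that choice and are given as a description, with no p. Over the 24 livers S100a8 and S100a9 gave Pearson r = 0.888 (Spearman rho = 0.85; r = 0.834 without the 2 farthest arrays). S100a8 and Lcn2 gave r = 0.799 (rho = 0.686; r = 0.658 without the 2 farthest), and S100a9 and Lcn2 gave r = 0.791 (rho = 0.697; r = 0.689 without the 2 farthest). Ngp gave r = 0.031 with S100a8, -0.0542 with S100a9 and 0.0874 with Lcn2. The other 42 of the 45 pairs, these included, lay between r = -0.461 and 0.39.

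Much of this lay in the 4 arrays that stood apart. In the other 20 livers S100a8 and S100a9 gave r = 0.673 (rho = 0.603), while S100a8 and Lcn2 gave r = 0.14 (rho = 0.116) and S100a9 and Lcn2 r = 0.196 (rho = 0.257). Ngp, with r near 0 over the 24 livers, gave r = -0.312 with S100a8, -0.37 with S100a9 and -0.189 with Lcn2 in the 20. S100a8 with Elane gave r = -0.714 (rho = -0.639) in the 20 livers and r = -0.461 (rho = -0.417) in the 24, with Elane near the floor.

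**Figure D4:**
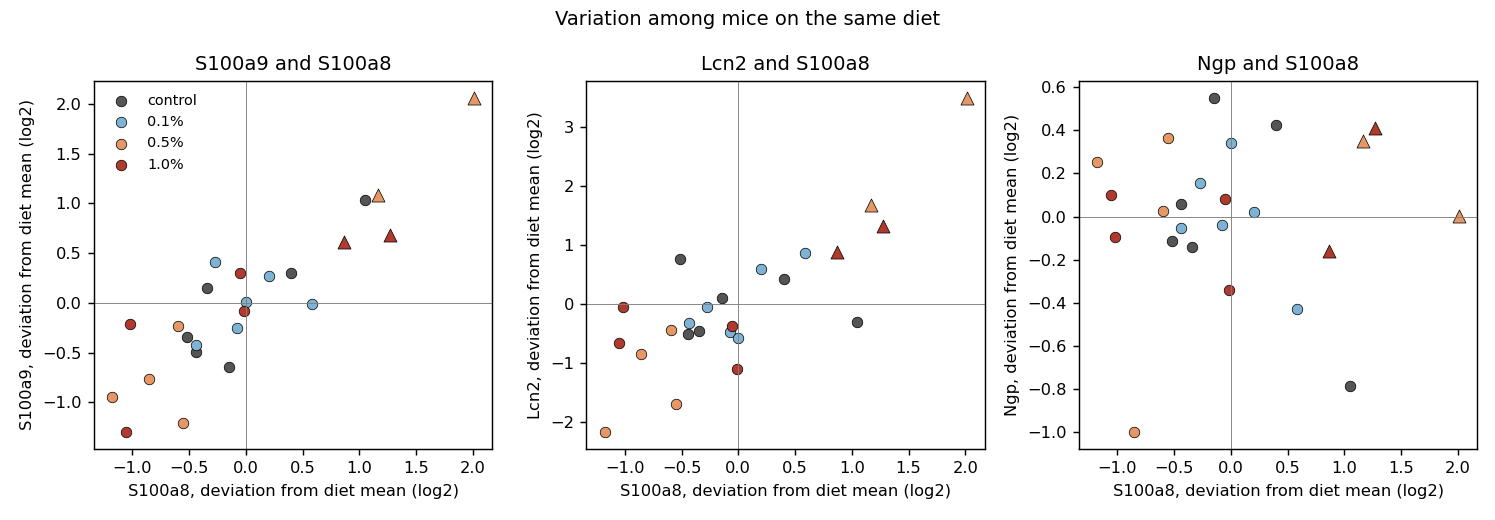
Deviation of S100a9, Lcn2 and Ngp (vertical axes) from their diet means against that of S100a8 (horizontal axis), in log2 units; each point is a liver, coloured by diet, and triangles mark the 4 arrays apart on the first principal component. S100a9 gave r = 0.888 with S100a8 over 24 livers and 0.673 over the 20 circles, Lcn2 gave 0.799 and 0.14, and Ngp gave 0.031 and -0.312.

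The genes most like the calprotectin pair between mice were sought among 10260 genes above the floor, by Pearson r with the mean deviation of S100a8 and S100a9 over 24 livers. The first 8 were Ptpn1, a tyrosine phosphatase gene (r = 0.887), D10Wsu102e (0.874), Cebpb, a bZIP transcription factor gene (0.872), Serpina3n, an acute phase serpin gene (0.863), Mt1, a metallothionein gene (0.859), Nop56, a nucleolar protein gene (0.858), Ccl6, a chemokine gene (0.855), and Lpin1, a phosphatidate phosphatase gene (0.85). They share the libraries with the pair and were picked for their r, so no p is given. In the 20 livers the r of these 8 lay between 0.273 for D10Wsu102e and 0.553 for Ccl6, and 0 of the 8 were among the first 8 there. Lcn2 itself gave r = 0.818 with the pair over 24 livers and 0.184 over 20. Cebpb differed from control by 1.04 (SE 0.31) at 0.5% and 0.80 (SE 0.31) at 1.0%, with adjusted p of 0.501 and 0.45, and by 0.51 and 0.44 without the 4 arrays.

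Other neutrophil genes, from a list without the 10, were mostly below the floor. Of 20 listed, 14 had a probe set and 1 of these, Fpr2, a formyl peptide receptor gene, was above the floor. At 1.0%, 8 of 14 were higher than control with a median difference of 0.037, at 0.5% 9 of 14 with 0.12, and at 0.1% 9 of 14 with 0.24, beside -0.00991, -0.0211 and 0.0121 over all genes. None passed in limma, and 1, 2 and 0 of 14 had an unadjusted p under 0.05, beside 8.92%, 7.65% and 5.11% of all genes. The smallest p at 1.0% were those of Trem1, an activating receptor (1.32, SE 0.47), Il1r2, a decoy receptor for interleukin 1 (0.80, SE 0.39), and Olfm4, a granule glycoprotein (0.72, SE 0.46), each below the floor in most arrays. Cxcr2, the main chemokine receptor of neutrophils, was above the floor in 4 of 24 arrays. Summed over the 14 genes, normalized intensity ran from 47.5 to 71.0 in control, 40.8 to 88.9 at 0.1%, 41.5 to 103 at 0.5% and 57.8 to 78.8 at 1.0%.

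Further granule genes were mostly below the floor too, and some, such as Mmp9 and Prtn3, stand in the list above as well. Of 5 measured primary granule genes apart from Elane and Mpo, 2 were above the floor, Ctsc, the activator of granule serine proteases (difference at 1.0% -0.15, SE 0.12), and Lyz2, a lysozyme gene that macrophages share (0.20, SE 0.16). Of 10 measured secondary and tertiary granule genes, 2 were above it, Slpi, a protease inhibitor gene, and Hp, the haptoglobin gene, which hepatocytes express strongly and which differed by 0.15 (SE 0.08). None of these 15 passed at any dose in limma, and 0 had an unadjusted p under 0.05 against control.

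Signals that call neutrophils into tissue, and their receptors, were more often above the floor, 13 of 23. At 1.0% 14 of 23 were higher than control (median 0.10), at 0.5% 13 (median 0.14) and at 0.1% 8 (median -0.0797), and none passed. Cxcl1, a neutrophil-attracting chemokine gene, stood at 6.26 in control and was higher by 0.48 (SE 0.76), 2.03 (SE 0.76) and 2.05 (SE 0.76) over the doses, with an adjusted p of 0.435 at 1.0%. Without the 4 arrays it differed by 0.65 at 0.5% and 1.55 at 1.0% beside 0.73 and 1.42 for Lcn2. Il1r1, an interleukin 1 receptor gene, differed by 1.28 (SE 0.67) at 1.0%, and by 0.29 without those arrays. Csf2 was below the floor in all 24 arrays and Csf3, the ligand of Csf3r, in 22.

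Of 10 measured transcription factor genes of granulocyte formation, 7 were above the floor. At 0.5% 8 were higher and at 1.0% 8, beside 46.6% and 48.4% of all genes, with medians of 0.32 and 0.36. None passed, and which liver cells gave these values was not tested. Gfi1 and Stat3 followed Cebpb in p at 1.0%, at 1.01 (SE 0.43), below the floor in all 24 arrays, and 0.36 (SE 0.24), which was 0.014 for Stat3 without the 4 arrays. Without those arrays 9 of the 10 were higher at 0.5% and 6 at 1.0%, and the list's medians were 0.23 and 0.13. Of 9 receptors and partners for calprotectin and lipocalin 2, 6 were higher and 3 lower at 1.0% (median 0.12). At 0.5% 4 were higher and 5 lower (median -0.0677), and none passed at either dose. Without the 4 arrays 7 were higher at 1.0% and 2 at 0.5%, with medians of 0.0737 and -0.20. The 3 with the smallest p at 1.0% were all higher. Myd88 differed by 0.22 (SE 0.15, 0.0737 without the 4 arrays), Cd14 by 0.59 (SE 0.42, 0.29) and Ly96 by 0.18 (SE 0.14, 0.0626). Among 12 other S100 family genes 7 were higher at 1.0% with a median of 0.0398, and none passed. S100a10 differed by 0.28 (SE 0.16; 0.12 without the 4 arrays), S100a6 by 0.27 (SE 0.17) and S100g, below the floor in all 24 arrays, by -0.59 (SE 0.33).

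Most acute phase genes, which hepatocytes turn on in inflammation, also had higher means at 0.5% and 1.0% over all 24 arrays, with 3 and 4 of 25 lower. Lcn2, often counted among them, was kept out of this list. The summed intensity of the 25 genes ran from 48300 to 51600 in control and 49100 to 53800 at 0.1%. It ran from 47200 to 79400 at 0.5% and 50200 to 74300 at 1.0%, so the groups overlapped. The medians of the sum were 50200, 50700, 53700 and 55100 in control, 0.1%, 0.5% and 1.0%. At 1.0% 21 of 25 were higher than control (median 0.29; 0.17 without the 4 arrays) and none passed. At 0.5% 22 were higher (median 0.29), but without the 4 arrays 16 (median 0.0245). Along the dose 1 of 25 passed, Socs3, beside 0.0989% of all genes, and without the 4 arrays 2 passed, Socs3 and Mt1, beside 0.0934%. The 3 genes with the smallest p at 1.0% stood far above the list's median. Socs3, a feedback inhibitor of cytokine signalling, differed by 2.11 (SE 0.47), and Mt1 and Mt2, metallothionein genes, by 4.75 (SE 1.17) and 4.92 (SE 1.31). Without the 4 arrays these were 2.20, 3.49 and 3.47. The part of this response in the S100a8, S100a9 and Lcn2 values was not tested.

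At 1.0%, over all 24 arrays, markers of other blood and liver cells had median differences nearer 0 than the acute phase list. At 0.5% the red cell and T and NK cell medians were -0.27 and 0.24, beside 0.29 for the acute phase list. Without the 4 arrays the T and NK cell, monocyte and red cell medians at 0.5% were 0.34, -0.27 and -0.25, beside 0.0245. The other marker lists lay nearer 0 than these 3. Of 8 Kupffer cell markers 7 were above the floor, and 2 of 8 were higher at 1.0% and 2 at 0.5%, with medians of -0.0549 and -0.0954. Without the 4 arrays 4 of 8 were higher at 1.0% and 2 at 0.5%, with medians of -0.0205 and -0.105. Csf1r (8.43), Clec4f (7.71) and Vsig4 (7.26) had the highest means, and Marco was below the floor in all arrays. The Kupffer sum ran from 1020 to 1160 in control, 955 to 1080 at 0.5% and 915 to 1100 at 1.0%. Of 5 monocyte markers 2 were above the floor, Cd14 and Cx3cr1, and Ccr2 was above it in 7 arrays. The monocyte sum ran from 34.3 to 53.5 in control, 33.8 to 111 at 0.5% and 33.7 to 70.2 at 1.0%, so the groups overlapped. Its medians were 45.7, 41.4 and 58.2. Of the 5 markers 3 were higher at 0.5% and 3 at 1.0%, with a median difference of 0.10 at both doses. Without the 4 arrays 2 were higher at each dose, with medians of -0.27 and -0.12. The part of monocytes in the calprotectin values was not tested.

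Of 6 platelet markers 3 were higher at 1.0%, of 4 red cell markers 0, of 5 T and NK cell markers 3, of 4 B cell markers 2 and of 4 endothelial markers 1, and none passed at any dose in limma. Their medians at 1.0% lay between -0.039 for the endothelial and 0.12 for the T and NK cell list. Without the 4 arrays these medians lay between -0.0387 for the red cell and 0.17 for the platelet list, and 3 of 4 endothelial markers were higher. The brightest were Pf4 (4.56) for platelets, Alas2 (8.96) for red cells, Cd8a (3.31) for T and NK cells, Ighm (6.84) for B cells and Clec4g (8.31) for the endothelium. Of the hepatocyte markers, 1 of 8 was higher at 1.0%, with a median of -0.0478 and sums of 52500 to 55300 in control and 51400 to 53300 at 1.0%. Without the 4 arrays 4 of 8 hepatocyte markers were higher, with a median of -0.0024.

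**Figure D5:**
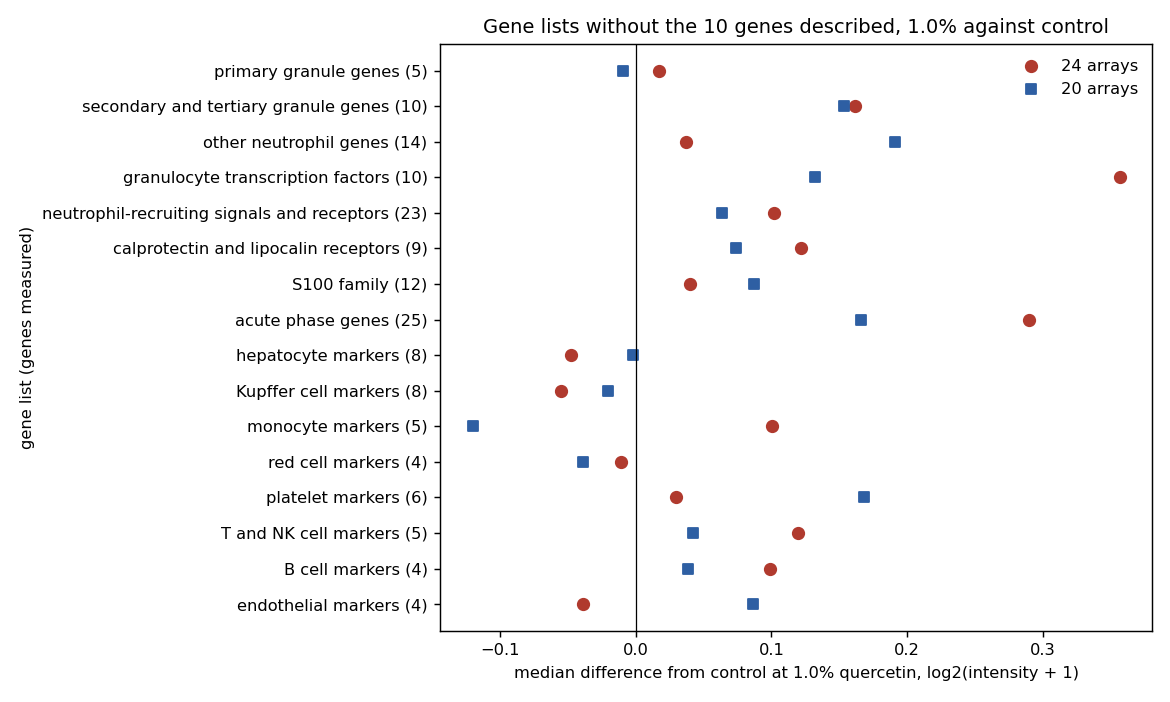
Median difference from control at 1.0% quercetin in log2(intensity + 1) (horizontal axis) for 16 gene lists without the 10 genes described (vertical axis, number of genes measured in brackets); circles are all 24 arrays and squares the 20 arrays without those apart. The transcription factor and acute phase lists stand at 0.36 and 0.29 with all arrays and at 0.13 and 0.17 with 20, and the other neutrophil genes at 0.037 and 0.19.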

How the data were processed

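Per the labels' protocols, total liver RNA was reverse-transcribed mouse by mouse, and the cRNA copied from it carried biotin for hybridization to an Affymetrix array. The authors deposited 45101 probe set intensity values per array, on a linear scale; which software, background correction and scaling made them is not given in the sources used here. From them, log2(intensity + 1) was quantile-normalized between arrays. The platform annotation paired 34945 probe sets with 1 symbol; 932 with several symbols and 9160 that it did not list were left out. Of several probe sets of a gene the brightest was used.

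All 24 arrays entered 1 fit by diet group, and another by dose, in limma 3.58.1 under R 4.3.3 (eBayes, two-sided, Benjamini-Hochberg over 18193 genes). The fits were tested on simulated data. The number of arrays limits the precision. The 10 genes and 16 lists (149 of 171 genes measured) were chosen with earlier results of these data known, and quantile normalization followed from earlier work, as did the 4 arrays left out. Named genes were the 10, the 8 most like the calprotectin pair, and up to 3 per list by p at 1.0% or, for other cell types, by mean; Fpr2, Cxcr2, Slpi, Csf3, Marco, Mmp9 and Prtn3 were named after their values were seen. Alternatives covered normalization, pseudocount, filters, eBayes options, array weights, blocks and each array left out; replicates 1 to 3 and 4 to 6 alone were added after seeing the data.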

Additional observations from a re-analysis of the deposited data

Results flagged for a closer look

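Among 40 groups of 6 values (10 genes in 4 diets), 2 held an array whose gap to its nearest neighbour exceeded 0.625 of the group's range, and chance flags about 1 in 20 such groups. Ngp in replicate 5 of the 0.5% group was the lowest, at 2.71 with the next at 3.71 on the log2 scale (gap 0.736 of the range). Elane in control replicate 5 was the lowest of its group, at 1.66 with the next at 2.96 (0.645). Neither S100a8, S100a9 nor Lcn2 was flagged in any diet, but the rule takes the gap to the nearest neighbour, so 2 high arrays can hide each other. At 0.5% replicates 6 and 4 stood at 10.17 and 8.34 for Lcn2, with the next at 6.23. For S100a8 they stood at 7.20 and 6.36, with the next at 4.64.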

How the results depend on the processing

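None of the 10 genes passed in limma at any dose against control or between doses under 37 alternatives per comparison; along the dose the count ran from 0 to 1 with an array left out, and the 1 was Lcn2 without replicate 6 of the 0.5% group. The number of the 10 higher than control at 0.5%, 7, was 4 with genes above the floor in 6 or more arrays, where fewer of the 10 remain. With the floor at the lower quartile (1.79) 9 of the 10 lay above it. Of 930 alternative values of single differences, 5 moved by 1 within-group SD of the gene or more. This count does not measure stability, because many alternatives left out an array of neither compared group and could not change the difference. The SD was also wide: the change of S100a8 at 0.5% from 1.52 to 0.73 without the 4 arrays did not count as moved. With a pseudocount of 16, S100a8 differed by 0.96 at 0.5% and 0.55 at 1.0%, S100a9 by 0.46 at 1.0%, and Lcn2 by 1.66 and 1.51. Over all genes, the count passing ran from 0 to 7 at 0.5% (3 in the values reported), 0 to 7 at 1.0% (4) and 0 to 103 along the dose (18); without normalization between arrays it was 5, 0 and 0.

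With the replicate block, 0 of the 10 genes passed in each comparison. Over all genes the numbers gave little sign of pairing. Deviations of same-numbered mice gave correlations over genes from -0.0641 to 0.111, the highest between replicate 4 of 0.5% and of 1.0%, both arrays apart. A mouse was most like its own number in 7 of 36 pairs, with 6 numbers in each group. A shared cage or day in some genes only was not tested. Under the block 0 genes passed at 0.5%, 4 at 1.0% and 18 along the dose.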
